A study of Arabidopsis thaliana with 4 samples.

Results

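Late embryogenesis abundant (LEA) proteins and dehydrins, a branch of the same group, are small hydrophilic proteins that plant embryos store before the seed dries. Their transcripts were followed in seeds of Arabidopsis thaliana, both wild type (accession Ler-0) and the mutant wrky43-1, named for the transcription factor gene WRKY43. Each sample was 10 mg of dry seeds kept for 4 days in liquid 0.5 MS, a culture medium, with 2 µM abscisic acid (ABA), the hormone that holds back germination. Both genotypes received the ABA, and seeds without it were not analysed here, so a level says nothing of the response to ABA. Each genotype had 2 biological replicates, each on its own array, and the labels do not say what the wrky43-1 lesion is or whether the line was complemented. From a list of 51 LEA and dehydrin loci, those with a probe set paired with that gene alone in the platform's annotation were taken. There were 36, out of 16548 genes with such a probe set in all, and each gene was read through its probe set with the highest mean over the 4 arrays.

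LEA proteins are mostly unstructured in water and are thought to shield membranes and other proteins as cells lose water. In ripening seeds many of their genes are switched on by ABA through the transcription factors ABI3 and ABI5, and in leaves some of them respond to drought, cold or salt. They are sorted into classes by sequence motifs. LEA_4 proteins carry repeats that fold into amphipathic helices on drying, dehydrins carry lysine-rich K-segments that bind membranes, and LEA_2 proteins are folded. SMP stands for seed maturation proteins, LEA_5 for the Em proteins of the late embryo, and AtM for the seed proteins M10 and M17.

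The 36 measured genes were 2 of LEA_1, 2 of LEA_2, 2 of LEA_3, 15 of LEA_4, 4 of SMP, 6 dehydrins, 3 of PvLEA18 and 2 of AtM. No LEA_5 gene was measured, so EM1 and GEA6 (also called EM6) have no value here. The other 13 loci without a probe set of their own were LEA4-5, LEA14, LEA3, SAG21, LEA7, ECP63, UNE15, RAB28, ATECP31, ERD10, ERD14, XERO1 and RAB18. Probes for them may exist among the unnamed probe sets.

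Values are log2 expression as deposited, and the scale was read from their range of 1.18 to 14.27. Over all probe sets and arrays the lower quartile was 2.85 and the upper quartile 6.62. Array medians over all probe sets were 4.344 and 4.339 in wild type and higher, 4.427 and 4.402, in wrky43-1. Pearson's r across probe sets was 0.986 and 0.987 within genotypes and 0.978 to 0.981 between them. No detection calls were used here, so a low value cannot be told from background. Levels of different genes come from different probes and give no order of abundance. The seed storage gene PAP85, which encodes a vicilin-like protein, read 12.63 to 12.89. WRKY43 itself had no probe set of its own, so its level did not serve as a check on the labels.

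To describe the levels of the LEA genes, a high and a low band were drawn after the values had been seen. On all 4 arrays 13 genes read above 9, namely both LEA_1 genes, DI21, 6 LEA_4 genes, and 1 each of SMP, dehydrins, PvLEA18 and AtM. Another 10 read below 4 on all 4 arrays, namely AT3G53770 of LEA_3, AT2G03740, AT2G03850, COR15B and AT4G13230 of LEA_4, AT5G27980, AT5G53260 and AT5G53270 of SMP, AT2G33690 of PvLEA18, and M10. The remaining 13 lay between or across these limits. Replicates were close. The gap between the 2 arrays of a genotype had a median over the 36 genes of 0.12 in wild type and 0.11 in wrky43-1, and the widest gaps were 0.47 and 0.56.

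**Figure D1:**
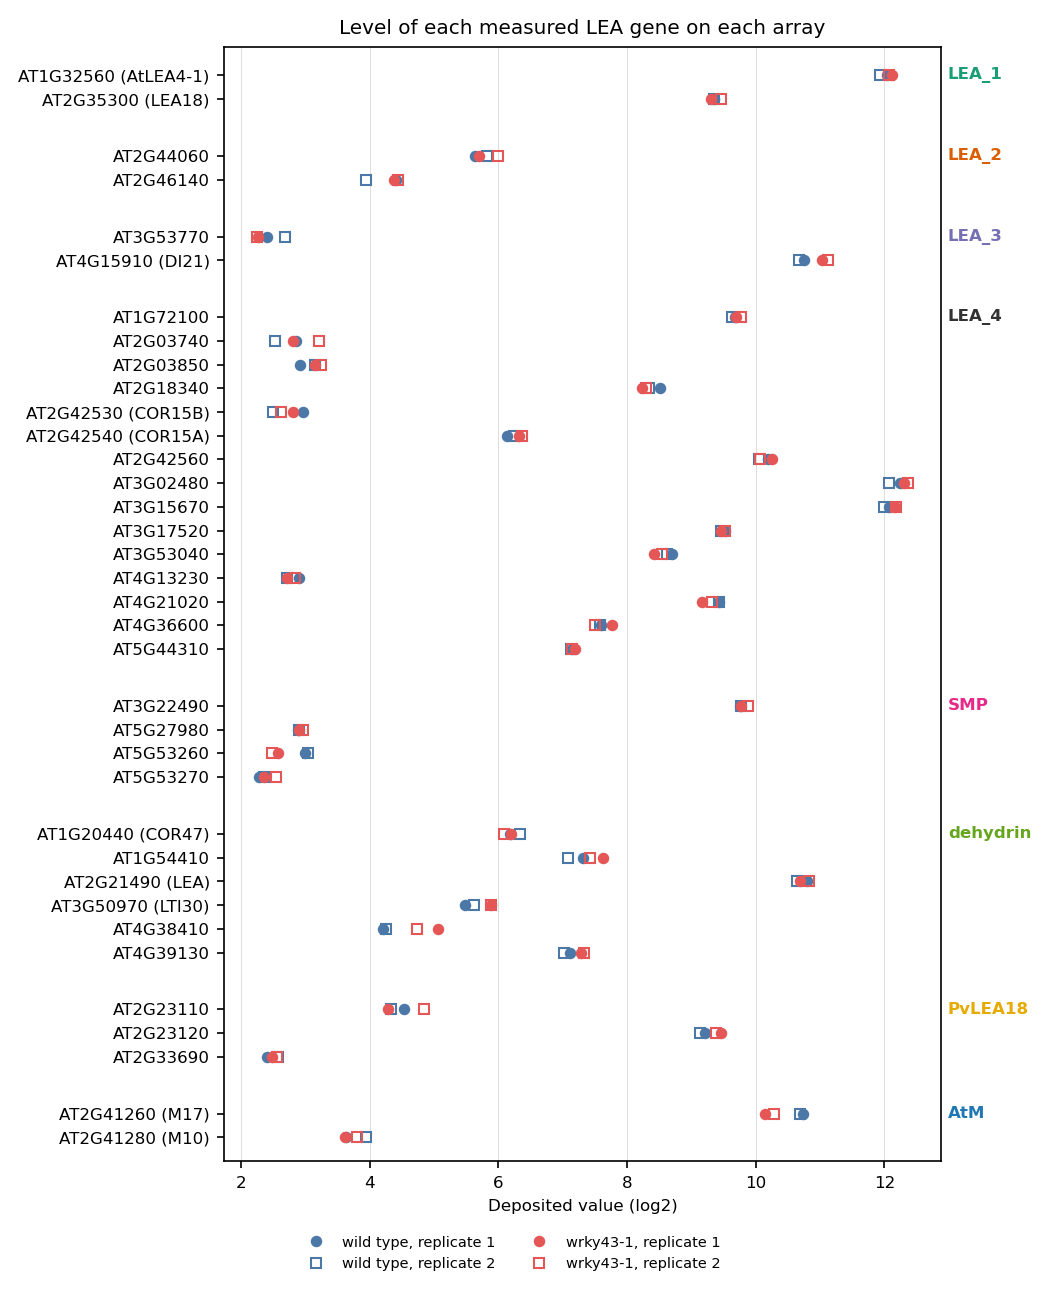
Level of each of the 36 measured LEA genes on each array, as the deposited log2 value, grouped by class (named at the right). Points are single arrays, blue for wild type and red for wrky43-1. The 4 arrays lie close together for nearly every gene, while the genes spread from 2.25 to 12.37.

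None of the 36 genes passed the test between the genotypes. At a limma p adjusted over all 38408 probe sets of under 0.05, 0 were higher and 0 lower in wrky43-1, where 0.0026% of all probe sets were called higher and 0% lower. That background was 1 probe set higher and 0 lower, and it was 74 and 30 when the variance prior followed intensity and 12 and 6 in a fit of the 1-gene probe sets alone, while no LEA gene was called in either. At an unadjusted limma p under 0.05, 3 of the 36 were higher and 2 lower, against 5.44% and 6.08% of all genes. These are shares near the background, so the counts give no result about the LEA genes. Leaving out any one of the 4 arrays left 0 to 1 higher and 0 to 1 lower. The 3 higher were AT4G38410 and LTI30, both dehydrins, and DI21 of LEA_3. The 2 lower were M17 of AtM and AT5G53260 of SMP.

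Differences were small throughout. They ran from -0.50 (M17) to 0.66 (AT4G38410) on the log2 scale, with a median of 0.06 and quartiles of -0.02 and 0.17, against a median of -0.01 and quartiles of -0.17 and 0.14 over all genes. In 32 of the 36 (88.9%) the difference was under 0.35 in size, as in 83.0% of all genes. The 95% interval of the limma fit reached at most 0.62 to either side, with a median of 0.35. For 35 of the 36 it held neither a doubling nor a halving, and AT4G38410 was the exception. The values therefore set bounds on the size of a change in the readings as deposited, and do not show that levels were equal. The bounds do not cover the choice of scaling. For the 10 genes that read below 4 on all 4 arrays, they need not bound a change in transcript, since signal cannot be told from background.

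**Figure D2:**
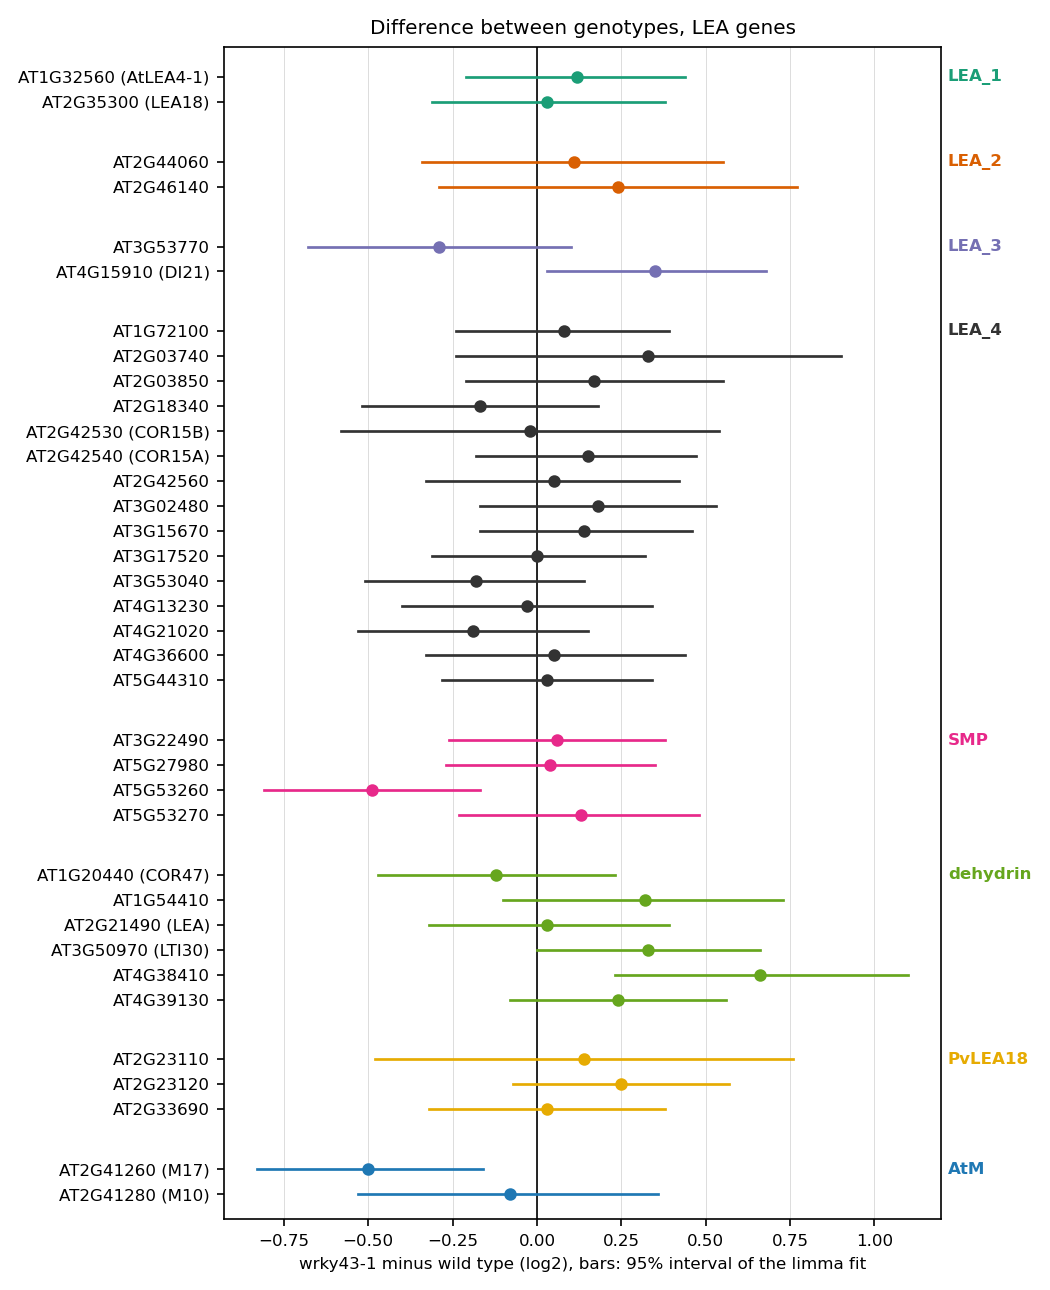
Difference wrky43-1 minus wild type on the log2 scale for each of the 36 genes, by class, with the 95% interval of the limma fit (2 arrays per genotype). For 31 genes the interval holds 0, and AT4G38410 (0.66), M17 (-0.50) and AT5G53260 (-0.49) lie farthest from it.

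Read by sign, 26 of the 36 genes (72.2%) were higher in wrky43-1, against 47.4% of all genes. Both wrky43-1 arrays lay above both wild-type arrays in 14 of the 36, where 21.7% of all genes did so, and below them in 6, against 25.0%. These counts carry no test, since the list was proposed with results of these data known. The number reading higher moved with the scaling, for LEA genes and all genes together. It was 21 of 36 with quantile normalization (43.3% of all genes) and 17 of 36 after each array was centred to 1 median (34.7% of all genes), and the median of the LEA genes became 0.02 and -0.02 while that of all genes became -0.04 and -0.09. The median of the LEA genes lay above that of all genes by 0.07 as deposited and by 0.06 with quantile normalization. Centring used the median of all 38408 probe sets, named or not. It shifts every gene by the same amount, so it could not change that gap. Without single arrays 21 to 27 of the 36 read higher, against 46.8% to 48.0% of all genes.

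Gene length went with the differences too, and LEA genes are short. Their span in the reference annotation had a median of 1189.5 bp, introns included, against 1906 bp over all genes. Among the 10231 genes in the length range of the members, 490 to 2465 bp, the median difference was 0.02 and 54.0% were higher. Of these genes 25.9% had both wrky43-1 arrays above both wild-type arrays and 18.3% below, where the LEA genes had 38.9% and 16.7%. With a straight-line trend on length removed, 23 of the 36 LEA genes were higher, against 48.9% of all genes. The part of gene length in the result was not tested beyond these values.

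**Figure D3:**
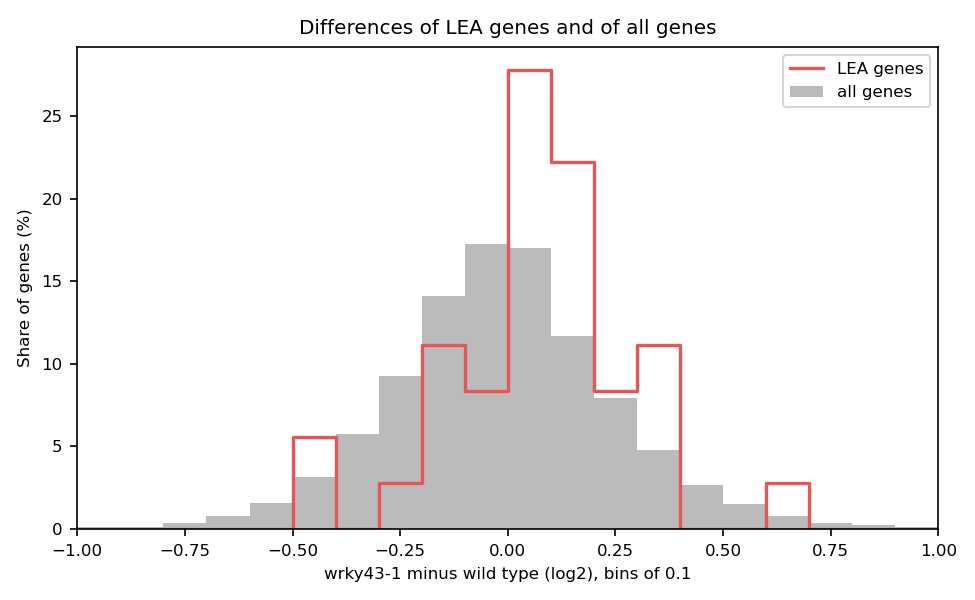
Share of genes in each bin of 0.1 of the difference wrky43-1 minus wild type (log2), as grey bars for all 16548 genes and a red line for the 36 LEA genes. The red line peaks just above 0, at 10 genes between 0 and 0.1, and no LEA gene lies below -0.50 or above 0.66; 67 genes lie outside the range drawn.

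The dehydrins had a median difference of 0.28, with 5 of 6 reading higher in wrky43-1, against 47.4% of all genes. In 4 of 6 both wrky43-1 arrays lay above both wild-type arrays, against 21.7% of all genes. With quantile normalization or centring 4 of 6 were higher, against 43.3% or 34.7% of all genes, and the median was 0.22 or 0.21. No dehydrin passed the adjusted test.

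AT4G38410, a dehydrin gene little described, read 4.21 and 4.26 in wild type against 5.06 and 4.73 in wrky43-1. Both mutant values lay above both wild-type values, and they were also farther apart than the wild-type pair. The log2 difference was 0.66 (SE 0.16, 95% interval 0.23 to 1.10), a 1.58-fold difference, with a limma adjusted p of 0.213.

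LTI30, also called XERO2, is a basic dehydrin induced by cold and ABA that binds membranes. It read 5.49 and 5.62 in wild type and 5.88 and 5.89 in wrky43-1. The wrky43-1 pair nearly coincided and lay above wild type (log2 difference 0.33, SE 0.12, limma adjusted p = 0.31). Its unadjusted p of 0.049 in limma is just inside the threshold used for counting. That limma p was 0.0607 when the variance prior followed intensity, where AT2G23120 of PvLEA18 was among the 3 higher in its place. It was 0.0638 with the length trend removed and 0.0295 without the lowest 50 percent of probe sets. XERO1, the dehydrin gene next to it on the chromosome, was not measured.

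AT1G54410, known as HIRD11, is a small histidine-rich dehydrin. It read 7.32 and 7.09 against 7.63 and 7.42 in wrky43-1, a difference of 0.32 (SE 0.15), which was 0.20 without wild-type replicate 2. AT4G39130 read 7.11 and 7.02 against 7.28 and 7.33, a difference of 0.24 (SE 0.12). In both genes the genotypes did not overlap, and neither passed the test (limma adjusted p = 0.403 and 0.41).

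AT2G21490, the dehydrin gene that read above 9 on all arrays, showed overlapping genotypes. It read 10.80 and 10.65 in wild type and 10.69 and 10.83 in wrky43-1 (log2 difference 0.03, 95% interval -0.32 to 0.39), and the sign turned with quantile normalization (-0.12) and centring (-0.04). COR47, an acidic dehydrin induced by cold and drought, was the only measured dehydrin with a negative difference, -0.12 (SE 0.13), and its genotypes overlapped at 6.19 and 6.34 against 6.20 and 6.09.

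LEA_4, the class with the most measured genes, had a median difference of 0.05, with 10 of 15 reading higher and 5 lower. With quantile normalization 8 were higher and 7 lower (median 0.00), and with centring 6 were higher and 9 lower (median -0.03). Of all genes 47.4% were higher as deposited, 43.3% with quantile normalization and 34.7% with centring. As deposited, all 15 differences were under 0.35 in size and 0 had an unadjusted limma p under 0.05. Among its genes that read above 9 were AT3G02480, known as ABA-responsive, and AT3G15670. AT3G02480 read 12.24 and 12.07 in wild type and 12.30 and 12.37 in wrky43-1. AT3G15670 read 12.08 and 12.00 against 12.17 and 12.19. Both genes had the mutant arrays above the wild-type arrays, with differences of 0.18 (95% interval -0.17 to 0.53) and 0.14 (-0.17 to 0.46) and limma adjusted p-values of 0.556 and 0.614.

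COR15A encodes a chloroplast protein that stabilises membranes during freezing, and COR15B, its close relative, is the neighbouring gene. COR15A read 6.14 and 6.25 in wild type and 6.32 and 6.37 in wrky43-1 (log2 difference 0.15, SE 0.12). COR15B read 2.97 and 2.50 against 2.81 and 2.62, with overlapping genotypes and a difference of -0.02 (SE 0.21). AT2G42560, close to both on the chromosome, read 10.19 and 10.05 against 10.26 and 10.07, also with overlap. These related sequences are read by separate probe sets, and cross-hybridisation between them was not tested.

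AT2G03740 had the largest difference in the class, 0.33 (SE 0.21), at low level. It read 2.86 and 2.53 in wild type and 2.81 and 3.22 in wrky43-1, so that a single wrky43-1 array stood above the rest and the genotypes overlapped. Without that array, wrky43-1 replicate 2, the difference was 0.12. AT2G03850, AT4G13230 and COR15B also read under 4 throughout, with differences of 0.17, -0.03 and -0.02.

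On the negative side of LEA_4, AT4G21020 (-0.19), AT3G53040 (-0.18) and AT2G18340 (-0.17) had both wrky43-1 arrays below both wild-type arrays, with SEs of 0.12 to 0.13. AT4G21020 read 9.43 and 9.43 in wild type and 9.16 and 9.32 in wrky43-1. AT3G53040 read 8.70 and 8.63 against 8.42 and 8.54. For AT2G18340 the number of the probe set used falls within a run of numbers from a different chromosome, as its 20 closest named probe sets show. A second probe set of that gene, numbered within its own chromosome, gave a difference of -0.14 (SE 0.21) with overlapping genotypes. The other LEA_4 genes, AT1G72100, AT3G17520, AT4G36600 and AT5G44310, read between 7.13 and 9.77 and differed by 0.08, 0.00, 0.05 and 0.03.

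DI21, a drought-induced LEA_3 gene, read 10.76 and 10.68 in wild type and 11.03 and 11.12 in wrky43-1. The genotypes did not overlap and the replicates of each were close, with a log2 difference of 0.35 (SE 0.12, 95% interval 0.03 to 0.68), a 1.28-fold difference. Its unadjusted limma p was 0.0394 and its adjusted p 0.289. The other LEA_3 gene measured, AT3G53770, read 2.41 and 2.68 against 2.26 and 2.25, a difference of -0.29 (SE 0.15) with all 4 values under the lower quartile of the arrays. Without wild-type replicate 2 that difference was -0.16.

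M17 stood at the other end. This gene of a seed maturation protein read 10.73 and 10.69 in wild type and 10.15 and 10.28 in wrky43-1. Both mutant arrays lay well below both wild-type arrays, with a log2 difference of -0.50 (SE 0.12, 95% interval -0.83 to -0.16), so that wild type read 1.41-fold higher. The unadjusted limma p was 0.0133 and the adjusted p 0.218. Over all settings tried its difference stayed between -0.60 and -0.43. The lowest adjusted limma p of any LEA gene in any setting, 0.0601, was that of M17 when the variance prior followed intensity. In the main limma fit AT4G38410 and AT5G53260, both at an adjusted p of 0.213, lay below M17. M10, its class partner 1 annotated locus away, read 3.64 and 3.95 against 3.62 and 3.80, with overlap and a difference of -0.08 (SE 0.17). Whether the genes differ in response was not tested.

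Of the SMP genes, AT3G22490 alone read at a high level, 9.76 and 9.77 in wild type and 9.77 and 9.88 in wrky43-1, with a difference of 0.06 (95% interval -0.26 to 0.38). AT5G53260 read 2.99 and 3.04 in wild type and 2.57 and 2.48 in wrky43-1. The genotypes did not overlap (log2 difference -0.49, SE 0.12, limma adjusted p = 0.213), but all 4 values lay near the lower quartile of the arrays, where signal cannot be told from background here. AT5G53270, the neighbouring SMP gene, read 2.28 and 2.36 against 2.36 and 2.54, a difference of 0.13 (SE 0.13). AT5G27980 read 2.89 to 2.97 on all arrays.

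AtLEA4-1 of LEA_1, a class whose members build up in seeds and under water deficit, read 12.05 and 11.93 in wild type and 12.12 and 12.08 in wrky43-1. The wrky43-1 arrays were slightly above wild type (log2 difference 0.12, SE 0.12, 95% interval -0.21 to 0.44). LEA18, of the same class, read 9.35 and 9.35 in wild type, between the mutant values of 9.30 and 9.47. The class thus had high values and no difference that passed the test.

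AT2G46140, a LEA_2 gene, is the annotated neighbour of WRKY43. It read 4.41 and 3.94 in wild type and 4.38 and 4.44 in wrky43-1. Wild-type replicate 2 stood below the other 3 arrays and the genotypes overlapped (log2 difference 0.24, SE 0.20, limma adjusted p = 0.614). Without that array the difference was 0.00, and without wild-type replicate 1 it was 0.47. AT2G44060, the other LEA_2 gene measured, read 5.64 and 5.83 against 5.70 and 5.99, with overlap and a difference of 0.11 (SE 0.16).

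The PvLEA18 class, named after a bean protein, had 3 measured genes with differences of 0.03 to 0.25. AT2G23120 read 9.21 and 9.14 in wild type and 9.46 and 9.39 in wrky43-1, without overlap (log2 difference 0.25, SE 0.12, limma adjusted p = 0.398). Its neighbour AT2G23110 read 4.53 and 4.34 against 4.29 and 4.85. There the wrky43-1 arrays enclosed the wild-type pair, and the difference of 0.14 had the widest interval of all 36 genes, -0.48 to 0.76. AT2G33690 read 2.41 to 2.58.

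**Figure D4:**
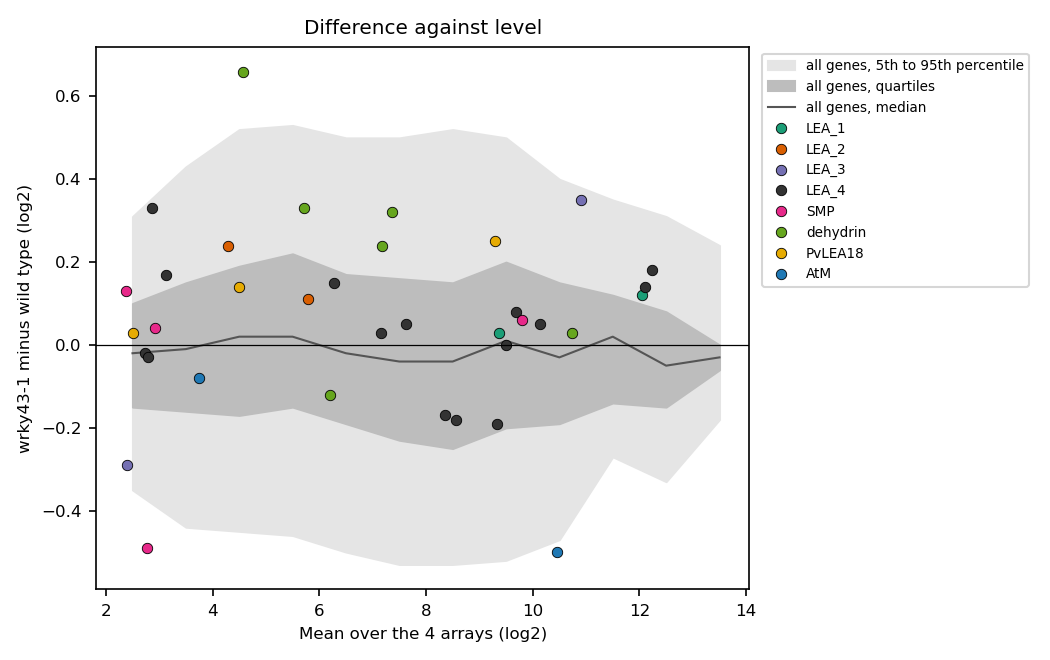
Difference wrky43-1 minus wild type (log2) of each LEA gene, coloured by class, against its mean over the 4 arrays (log2). Grey bands give the quartiles and the 5th to 95th percentiles of all genes in bins of 1 log2 unit, drawn at bin centres. Most LEA genes lie inside the wider band; AT4G38410 (0.66) is above it, and M17 (-0.50) and AT5G53260 (-0.49) are below it.

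Levels and differences were also set side by side. The 13 LEA genes that read above 9 on all arrays had differences of -0.50 to 0.35, with a median of 0.06 and 11 of 13 higher. The 513 genes of the whole table in that band had a median of -0.01, and 48.5% of them were higher. With quantile normalization or centring 6 of the 13 LEA genes were higher, against 33.3% or 33.7% of the 513. Without single arrays 8 to 11 of the 13 were higher, against 43.3% to 52.6% of the 513. The 10 LEA genes in the low band had a median of 0.00, with 5 higher and 5 lower. The 7961 genes of the whole table in that band had a median of -0.02, and 45.9% of them were higher.

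Of 44 further genes of seed desiccation tolerance, 9 had a probe set of their own, and 0 passed the adjusted limma test in either direction. At an unadjusted limma p under 0.05, 2 were higher and 1 lower, where 5.44% and 6.08% of all genes were. BZIP53, a bZIP factor that activates seed maturation genes, read 7.60 and 7.76 in wild type and 8.29 and 8.14 in wrky43-1, a log2 difference of 0.53 (SE 0.14, limma adjusted p = 0.224). KIN2, a small cold- and ABA-induced gene with a near-identical neighbour, KIN1, read 9.52 and 9.30 against 9.84 and 10.12, a difference of 0.57 (SE 0.17, limma adjusted p = 0.246). The 1 lower was STZ, a zinc-finger repressor of stress responses, at 6.95 and 6.49 against 4.86 and 4.92 (adjusted p = 0.157). Of the small heat shock and chaperone genes, AT5G37670 had the smallest unadjusted p, 0.115 in limma, and a single high wrky43-1 array of 4.83 beside 3.94. No gene of raffinose sugar synthesis was measured.

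Markers of seed reserves, of growing seedlings and of endosperm and seed coat were looked at beside the LEA genes, with 10 of 32 measured. All 5 measured reserve genes, of 16 listed, read lower in wrky43-1, as did 8702 of all 16548 genes. Their median difference was -0.14, and none of the 5 passed the adjusted test. AT1G03890, of the cupin family, had the largest, at 6.84 and 6.75 against 5.56 and 5.45 (adjusted p = 0.144 in limma). Of the 4 seedling markers 3 read lower and 1 higher, with a median of -0.03. Their smallest unadjusted p was that of LHCB4.1, a chlorophyll-binding protein gene, which read 8.86 and 8.99 against 8.47 and 8.69. ICL, of the glyoxylate cycle that takes part in the use of stored seed oil, read 12.90 to 13.03 on all arrays. BAN, the seed coat gene measured, read 2.63 to 2.87. In whole seeds, fewer cells of a type and less RNA per cell cannot be told apart, and the part of these markers in the LEA values was not tested.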

How the data were processed

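RNA of 4 seed samples was labelled with biotin after a hot borate extraction, per the labels' protocols. The deposited series table holds 38408 probe sets, read here as log2 because the authors' values lie between 1.18 and 14.27; their normalization is not given in the sources. Gene names come from the platform annotation, possibly outdated, and from RefSeq TAIR10.1: 16722 probe sets had 1 gene and 759 had several, which were not used. The genotypes were compared in limma 3.58.1 (R 4.3.3, lmFit, eBayes, no block). Two-sided p-values were adjusted by Benjamini-Hochberg across the 38408 probe sets, and 0.05 was the limit. Residual degrees of freedom were 2 and those of the prior 2.34. The fit was also run on simulated data with noise drawn from its own variance prior. The differences added there were larger than that of any LEA gene, so the run says nothing of power at the sizes reported.

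The members, gene lists and LEA classes, which follow general knowledge of the published classification, were chosen with earlier results of these data known. Values on each array are given for members with an unadjusted p under 0.05, for the highest mean and the largest difference of each class, for AT2G46140, COR15A, LTI30 and M17, and for others chosen after their values were seen; in the further lists, for the smallest p of each role and others so chosen. Same-numbered arrays deviated with a correlation of -0.0262, so replicate numbers were not taken as pairs. Alternatives covered the replicate block, scaling, filters on low values, the variance prior, array weights, probe sets, gene length and leaving out each array.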

Additional observations from a re-analysis of the deposited data

How the results depend on the processing

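Under the 14 alternatives no LEA gene passed the adjusted limma threshold in either direction (smallest adjusted p 0.0601), and 22 of the 36 kept their sign. With 1 residual degree of freedom once an array is left out or the replicate block is added, this says little about stability. The genes higher at an unadjusted p under 0.05, 3 as reported, were 1 under the replicate block, 1 after quantile normalization, 1 after each array was centred to 1 median and 0 to 1 without single arrays. Those lower, 2 as reported, numbered 1 without the lowest 30 percent of probe sets, 1 without the lowest 50 percent, which leave out AT5G53260, and 0 to 1 without single arrays. The replicate block changed no adjusted call of a LEA gene; over all probe sets, the 1 call was lost (0 called). The median log2 difference of the LEA genes, 0.06 as reported, was 0.02 with quantile normalization, -0.02 with centring, 0.09 without the lowest 30 percent and 0.04 to 0.11 without single arrays. That of SMP, 0.05 as reported, was 0.01, -0.02 and, with the length trend removed, 0.03, and 0.01 to 0.09 without single arrays. That of the dehydrins, 0.28 as reported, was 0.22, 0.21 and 0.25 in the same settings and 0.20 to 0.27 without single arrays. The 3 PvLEA18 genes had a median of 0.14 as reported, 0.06, 0.07 and 0.11 in those settings, and -0.01 to 0.24 without single arrays. Sign changes concerned genes with differences under 0.15 in size. With quantile normalization they were AT2G35300 (LEA18, -0.04), AT2G42560 (-0.02), AT3G17520 (-0.09), AT3G22490 (-0.03) and AT2G21490 (-0.12). Centring shifts every gene by the same amount, which fixes these sign changes: they were AT2G35300 (-0.04), AT2G42560 (-0.03), AT3G17520 (-0.07), AT4G36600 (-0.02), AT5G44310 (-0.04), AT3G22490 (-0.01), AT5G27980 (-0.03), AT2G21490 (-0.04) and AT2G33690 (-0.05). With the length trend removed they were AT2G35300 (-0.02), AT3G17520 (-0.01) and AT2G33690 (-0.05). Without single arrays AT2G35300 ran from -0.05 to 0.12, AT2G44060 from -0.04 to 0.25, AT2G42530 (COR15B) from -0.26 to 0.22, AT2G42560 from -0.05 to 0.14, AT3G17520 from -0.03 to 0.04, AT4G13230 from -0.13 to 0.07, AT4G36600 from -0.08 to 0.18, AT2G21490 from -0.04 to 0.11, AT2G23110 from -0.14 to 0.42, AT2G33690 from -0.06 to 0.11 and AT2G41280 (M10) from -0.24 to 0.07. Filters on low probe sets also refit the variance prior. Beyond that the cause was not tested. Without detection calls, how far the low values stand above background is unknown.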
